A study of Mus musculus with 8 samples.

Results

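Mast cell and basophil granule proteases are described here from 10 genes named by symbol, Mcpt1, Mcpt2, Mcpt4, Mcpt8, Cma1, Cma2, Tpsab1, Tpsb2, Cpa3 and Prss34. The genes were found by matching the RefSeq accession of each non-control array probe to these symbols. Of the 10, 8 had a matched probe, out of 17016 gene symbols with one on the array, and they were covered by 10 of its 41174 probes. No accession on the array matched Cma2 or Tpsab1 in the annotation used, which lists Tpsab1 as a transcribed pseudogene, and neither is analysed here. Of the 8, 6 were above background on all 8 arrays, and Mcpt1 and Mcpt2 on 0.

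The arrays measured messenger RNA in cultures of lineage-depleted bone marrow from 4 Runx1 Δ/Δ mice, whose strain is a mix of C57Bl/6 and 129SvJ. Runx1 is a transcription factor of blood formation, and Pcgf1 belongs to a variant Polycomb complex that represses genes. From each mouse 1 culture received a retrovirus with an shRNA against Pcgf1 and 1 a virus with a control shRNA, so there were 4 arrays with the Pcgf1 shRNA and 4 with the control shRNA. Before transduction the cells had grown for 2 days in IL-3 (10 ng/ml), SCF (50 ng/ml), and IL-11 and Flt3 ligand (100 ng/ml of each), and puromycin (5 µg/ml) was added 24 h after it for 36 h. Both groups carry the Runx1 deletion, so nothing here compares it with intact Runx1. The labels give 1 shRNA per target and neither the age of the mice nor how Runx1 was deleted.

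Mast cells and basophils pack their granules with proteases bound to the proteoglycan serglycin and release them when IgE receptors are crosslinked. Chymases cut after aromatic residues, tryptases after basic residues, and carboxypeptidase A3 removes residues from the end of a chain. In the mouse, Mcpt4, Cma1, Tpsb2 and Cpa3 belong to connective tissue type mast cells, Mcpt1 and Mcpt2 to mucosal mast cells, and Mcpt8 and Prss34 to basophils. Cpa3 is also transcribed early, in progenitors. SCF and IL-3 both support the growth of mast cells from bone marrow.

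The genes lie in clusters. On chromosome 14 the RefSeq annotation places Cma1, Cma2, Mcpt1, Mcpt2, Mcpt9, Mcpt4 and Mcpt8 in this order, followed by Ctsg (cathepsin G) and granzyme genes. On chromosome 17 Prss34, Prss28, Prss29, Tpsab1, Tpsb2 and Tpsg1 follow each other. Cpa3 lies alone on chromosome 3. The coding sequences within each cluster are closely related, and probe sequences were not used here, so a probe may also bind the transcript of a paralogue.

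RefSeq promoter windows (GRCm38.p6, 250 bases before to 50 after the annotated start) matched 6 of the 10 genes, Mcpt1, Mcpt4, Mcpt8, Cma1, Cpa3 and Prss34. The windows of 5 are shown because they hold the contrasts described below, between chymase genes that were lower with the Pcgf1 shRNA, a chymase gene below background, and proteases that did not pass over the 4 mice. Each is written in the direction of the gene. Capitals mark matches to 3 motifs, searched on both strands. They are the GATA motif AGATAA with its variants that begin with T or end with G, the E-box CACATG, of a kind bound by MITF, and the RUNX motif TGTGGT. No matches overlapped in these windows.
Mcpt4 (chr14:56062261-56062560, minus strand): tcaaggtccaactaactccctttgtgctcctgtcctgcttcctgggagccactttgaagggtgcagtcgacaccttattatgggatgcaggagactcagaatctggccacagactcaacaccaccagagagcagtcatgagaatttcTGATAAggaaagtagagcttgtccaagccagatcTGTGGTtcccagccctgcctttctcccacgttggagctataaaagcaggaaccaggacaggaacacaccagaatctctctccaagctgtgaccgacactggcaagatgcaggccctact
Mcpt1 (chr14:56017714-56018013, plus strand): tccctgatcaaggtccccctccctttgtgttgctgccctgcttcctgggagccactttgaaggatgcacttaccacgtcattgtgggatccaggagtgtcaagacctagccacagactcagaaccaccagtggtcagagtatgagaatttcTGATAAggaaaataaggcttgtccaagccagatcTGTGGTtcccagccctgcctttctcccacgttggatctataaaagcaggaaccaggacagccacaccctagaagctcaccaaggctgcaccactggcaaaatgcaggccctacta
Cma1 (chr14:55944626-55944925, minus strand): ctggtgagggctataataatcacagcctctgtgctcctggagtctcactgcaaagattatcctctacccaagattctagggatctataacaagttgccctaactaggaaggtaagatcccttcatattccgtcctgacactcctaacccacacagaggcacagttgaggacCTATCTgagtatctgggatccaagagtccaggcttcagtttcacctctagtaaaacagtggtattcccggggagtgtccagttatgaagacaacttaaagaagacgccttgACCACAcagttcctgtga
Mcpt8 (chr14:56085148-56085447, minus strand): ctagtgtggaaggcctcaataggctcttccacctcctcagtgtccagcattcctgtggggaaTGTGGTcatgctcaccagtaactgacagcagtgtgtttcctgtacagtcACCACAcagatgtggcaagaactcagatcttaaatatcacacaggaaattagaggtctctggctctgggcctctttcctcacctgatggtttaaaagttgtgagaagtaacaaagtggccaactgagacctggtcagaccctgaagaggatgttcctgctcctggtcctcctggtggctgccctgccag
Cpa3 (chr3:20242132-20242431, minus strand): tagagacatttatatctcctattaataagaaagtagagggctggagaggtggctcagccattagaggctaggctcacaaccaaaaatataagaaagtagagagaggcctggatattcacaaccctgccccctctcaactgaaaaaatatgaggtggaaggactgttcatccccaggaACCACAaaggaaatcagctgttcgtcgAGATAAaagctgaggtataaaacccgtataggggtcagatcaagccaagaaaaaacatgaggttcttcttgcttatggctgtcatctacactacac

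A GATA match was found in 5 of the 6 windows and in 29.8% of 32851 promoter windows of the same length, and a RUNX match in 5 of 6 and in 16.8%. An E-box match was found in Prss34 alone among the 6 windows, and in 14.2% of all windows. GATA factors, RUNX factors and MITF are known regulators of mast cell genes, and a match describes letters, not a bound site. In Mcpt4 the GATA match began at −103 and the RUNX match at −69 from the start, and in Mcpt1 they began at −99 and −65, so their first bases were 34 apart in both. The windows of Mcpt1 and Mcpt4 were identical in 81.3% of 305 aligned positions, against 48.1% to 53.5% for the other pairs of the 6 windows. Mcpt8 had 2 RUNX matches, at −188 and −139, and no GATA match among these letters, while Cpa3 had a RUNX match at −73 and a GATA match at −46.

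**Figure D1:**
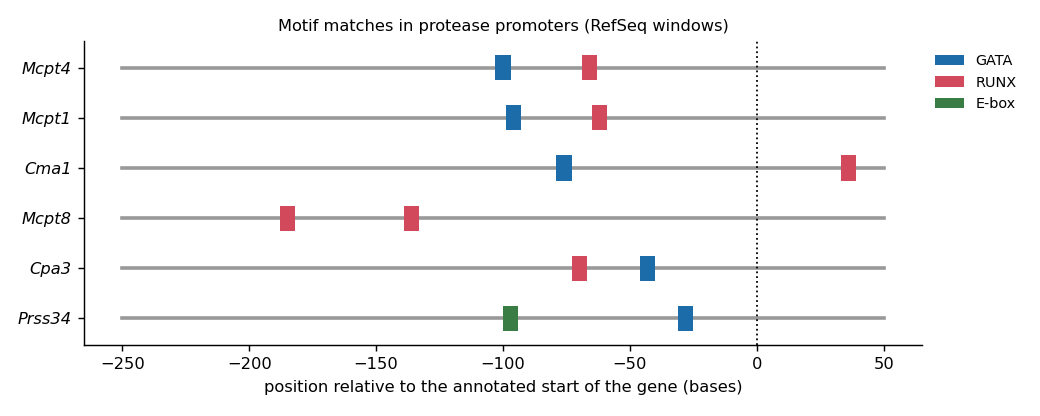
Positions of motif matches in the 6 promoter windows that matched a protease gene, in bases from the annotated start of the gene (0, dotted line), with blue boxes for GATA, red for RUNX and green for E-box matches. Mcpt4 and Mcpt1 hold a GATA match and a RUNX match with first bases 34 apart, and Mcpt8 holds RUNX matches alone.

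Signals are given as log2 of the processed spot signal relative to the 75th percentile of the same array, which is set to 0, and levels of different probes cannot be set against each other. On each array 54.8% to 62.0% of spots were well above background. The arrays filled 2 slides, with mice 1 and 2 on one and mice 3 and 4 on the other. Pcgf1 was at 39.0% of its control level with the Pcgf1 shRNA, between 37.8% and 41.0% in the individual mice (limma, adjusted p 0.0197), as the labels say. Along the first principal component, with 38.2% of the variance, the arrays of mouse 4 lay away from the rest, at 38.3 with the Pcgf1 shRNA and 44.8 with the control shRNA, against −30.1 to 2.95 for the other 6 arrays, so values without mouse 4 are given below.

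The tryptase and both chymase genes of connective tissue type mast cells that could be measured were lower with the Pcgf1 shRNA in 4 of 4 mice. Tpsb2 was 3.26-fold lower, Mcpt4 2.42-fold lower and Cma1 1.84-fold lower. In limma's test over all genes Tpsb2 passed at 0.05 (adjusted p 0.0467), while Mcpt4 (0.0791) and Cma1 (0.347) did not. The 3 genes passed in a limma fit that compares the cultures within each mouse (adjusted p 0.0257, 0.0164 and 0.0212). Cpa3, the carboxypeptidase stored with them, differed by 0.13 on the log2 scale. Of the basophil protease genes, Mcpt8 was higher in 3 of 4 mice and Prss34 lower in 3 of 4, and neither passed in either fit. In these bulk cultures fewer cells of a type and less RNA per cell cannot be told apart.

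Tpsb2 encodes a tryptase that mast cells store as a tetramer. Its log2 signal was −2.61, −3.05, −4.00 and −3.14 with the Pcgf1 shRNA (mice 1 to 4), against −1.63, −1.02, −1.54 and −1.77 with the control shRNA. The groups did not overlap, and the lowest value was that of the Pcgf1 culture of mouse 3. The mean was −3.20 ± 0.58 with the Pcgf1 shRNA and −1.49 ± 0.33 with the control shRNA (SD, n = 4 each), a log2 change of −1.71 (SE 0.29). Tpsb2 fell in limma's test over all 17301 genes (adjusted p 0.0467), and in a fit that compares the cultures within each mouse (mouse as a block, adjusted p 0.0257). Within slides it changed by −1.50 (mice 1 and 2) and −1.91 (mice 3 and 4), and with slide as a block the adjusted p was 0.0317. Without a block the call was lost when any single mouse was left out (mouse 1, 2, 3 and 4 in turn, adjusted p 0.146, 0.380, 0.188 and 0.0656), and with mouse as a block when mouse 2 or mouse 4 was (0.113 and 0.0686), while the change stayed between −1.95 and −1.46. Over the whole array 1, 0, 0 and 363 genes passed without a block when mouse 1, 2, 3 and 4 were left out in turn. With mouse as a block 284, 0, 306 and 145 did. These counts bear on every such loss of a call given below. With normexp background correction the change of Tpsb2 was smaller, −1.13 (adjusted p 0.0344), and without the filter on dim probes Tpsb2 did not pass.

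Mcpt4 encodes the main chymase of connective tissue type mast cells. Its brighter probe read −2.09, −2.06, −3.12 and −2.38 with the Pcgf1 shRNA in mice 1 to 4, against −1.26, −0.77, −1.53 and −0.99 with the control shRNA. These groups did not overlap either, and mouse 3 was the lowest in each. The log2 change was −1.27 (SE 0.26), which did not pass without a block (adjusted p 0.0791); with mouse as a block Mcpt4 fell (adjusted p 0.0164). The block call was lost without mouse 2 (0.0920) and without mouse 4 (0.0549). Within slides the change was −1.06 (mice 1 and 2) and −1.49 (mice 3 and 4). The dimmer Mcpt4 probe changed by −1.14, with −0.88, −1.02, −1.36 and −1.29 in mice 1 to 4 and an adjusted p of 0.0136 with mouse as a block in a fit over all probes. Both probes thus moved the same way in every mouse.

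Cma1 encodes an alpha chymase, which in the mouse cuts like an elastase. Its brighter probe read 3.47, 3.62, 2.24 and 2.84 with the Pcgf1 shRNA in mice 1 to 4, against 4.09, 4.47, 3.49 and 3.62 with the control shRNA. Here the groups overlapped, since the Pcgf1 culture of mouse 2 lay above the control culture of mouse 3, although each Pcgf1 culture was below the control culture of its own mouse. The log2 change was −0.88 (SE 0.34, adjusted p 0.347) without a block, and Cma1 fell with mouse as a block (SE 0.12, adjusted p 0.0212). That call was lost without mouse 1, 2 or 4 (adjusted p 0.0503, 0.108 and 0.0636). Within slides it was −0.74 (mice 1 and 2) and −1.02 (mice 3 and 4). The dimmer Cma1 probe gave −0.91 (0.0231 as its adjusted p in the fit within mice) and −0.62, −0.89, −1.34 and −0.79 in mice 1 to 4.

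Cpa3 encodes carboxypeptidase A3, the defining exopeptidase of mast cell granules. It read 4.63, 4.68, 4.26 and 4.37 with the Pcgf1 shRNA in mice 1 to 4, against 4.83, 4.93, 4.45 and 4.27 with the control shRNA. The groups overlapped, and Cpa3 was lower in mice 1, 2 and 3 and higher in mouse 4. The log2 change was −0.13 (SE 0.17, adjusted p 0.808), with a 95% interval of −0.52 to 0.26, or −0.35 to 0.077 with mouse as a block (adjusted p 0.405). Leaving out mouse 4, the change was −0.21 (adjusted p 0.474, or 0.14 with mouse as a block).

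Mcpt8, a marker protease of basophils, was the only one of the 6 tested genes with a higher mean in the Pcgf1 shRNA cultures. It read 0.23, −0.11, −0.26 and −0.49 with the Pcgf1 shRNA in mice 1 to 4, against −0.56, −0.85, −1.19 and −0.38 with the control shRNA. The changes within mice were 0.78, 0.74, 0.93 and −0.11, so mouse 4 differed in direction from the other 3. The mean log2 change was 0.59 (SE 0.21) and did not pass (adjusted p 0.301, or 0.121 with mouse as a block). Without mouse 4 it was 0.82 (adjusted p 0.0907), and with mouse as a block that value passed (0.0455).

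Prss34, the other basophil gene, encodes a tryptase-like protease. It read −3.95, −4.37, −4.52 and −3.40 with the Pcgf1 shRNA in mice 1 to 4, against −3.96, −2.90, −4.42 and −2.41 with the control shRNA. The differences lay near 0 in mouse 1 (0.0082) and mouse 3 (−0.10) and were larger in mouse 2 (−1.47) and mouse 4 (−0.99). The mean change of −0.64 (SE 0.45, adjusted p 0.628, or 0.216 with mouse as a block) was smaller than the spread of 0.93 (SD) between the control cultures. It was −0.52 without mouse 4 (adjusted p 0.451), and −0.36 without mouse 2.

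The probes of the mucosal mast cell genes Mcpt1 and Mcpt2 were not well above background on any array. Mcpt1 read −7.86 to −6.31 with the Pcgf1 shRNA and −7.75 to −6.53 with the control shRNA, and Mcpt2 read −8.08 to −7.04 with the Pcgf1 shRNA and −7.29 to −6.51 with the control shRNA. The dimmest spot called above background read between −5.94 and −5.22, by array, so no change is given for either gene. Among the 6 promoter windows above, that of Mcpt1, below background here, was the most similar to that of Mcpt4.

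**Figure D2:**
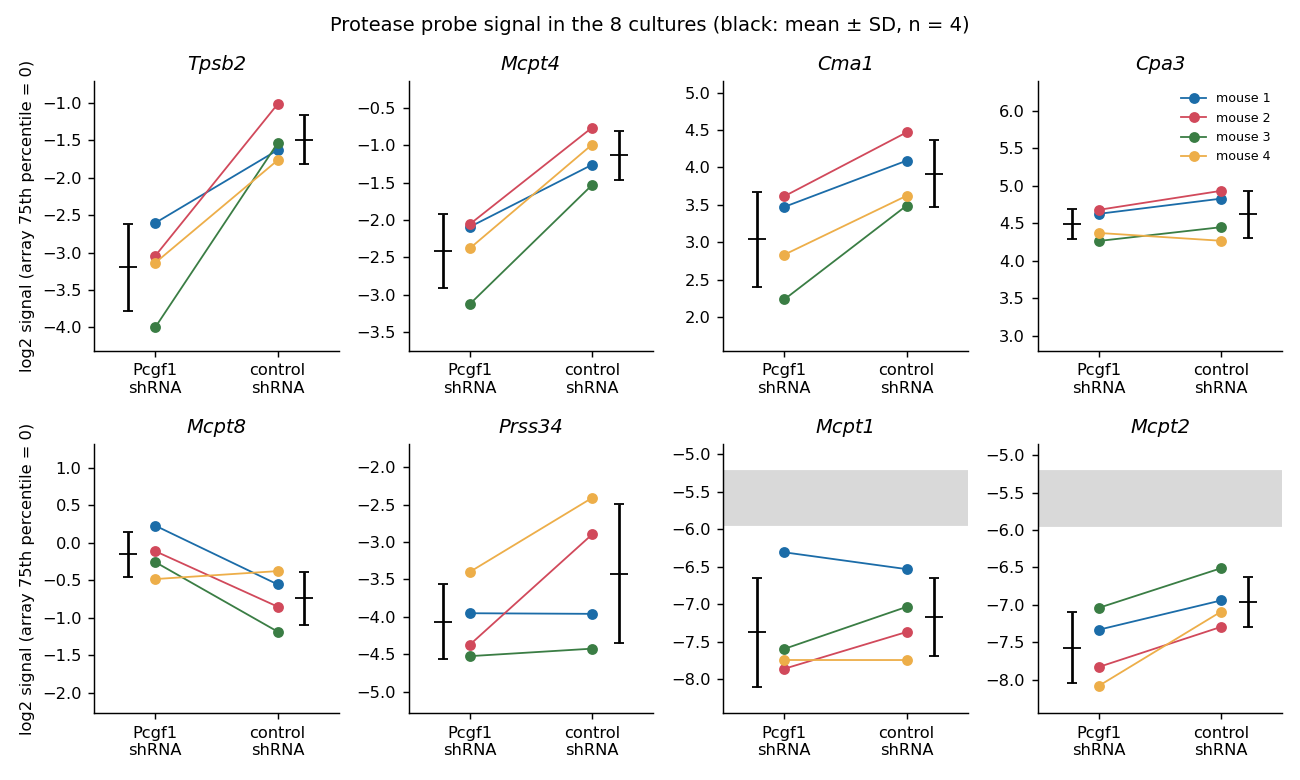
Log2 signal of the brightest probe of each protease gene (array 75th percentile set to 0, the same span on every vertical axis), with Pcgf1 shRNA cultures left of control shRNA cultures, lines joining cultures of a mouse, and black bars giving the mean ± SD (n = 4). Tpsb2 and Mcpt4 show no overlap between groups, Mcpt8 runs the other way in 3 of 4 mice, and Mcpt1 and Mcpt2 lie below the grey band of the lowest signals called above background (−5.94 to −5.22).

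Among the 6 genes with a test, 1 fell and 0 rose without a block, where 0.168% of all genes fell and 0.595% rose (0.763% in either direction). At an unadjusted p under 0.05 in limma, 3 of the 6 were lower, beside 5.51% of all genes, and 1 was higher, beside 6.65% (12.2% in either direction). With mouse as a block 3 of them fell while 0 rose, where 2.42% of all genes fell and 2.91% rose (5.32% in either direction). The 4 Pcgf1 arrays lay below all 4 control arrays for 2 of the 6 genes, and for 2.9% of all genes, and above them for 0 of the 6 and 4.24% of all genes. All 4 mice were lower for 3 of the 6 and for 16.2% of all genes, and higher for 0 of the 6 and 15.5% of all genes. The 6 genes had a median log2 change of −0.76, beside 0.0022 over all genes tested. All 6 were above background on all 8 arrays, so none passed the filter through 1 group alone. The members were chosen with earlier results of these data known, so these shares stand side by side and are not a test.

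In mice 1, 2 and 3 the change was lowest for Tpsb2, and Mcpt4, Cma1, Cpa3 and Mcpt8 lay above it in this order. Prss34 kept no place among them, between Cpa3 and Mcpt8 in mice 1 and 3 and between Tpsb2 and Mcpt4 in mouse 2. In mouse 4 Mcpt4 (−1.39) and Tpsb2 (−1.37) were nearly equal, and Mcpt8 (−0.11) lay below Cpa3 (0.10). Mouse 1 had the smallest change of Tpsb2 (−0.97), Mcpt4 (−0.83) and Cma1 (−0.62), and mouse 3 the largest (−2.46, −1.59 and −1.25). Differences between the genes' changes were not tested.

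**Figure D3:**
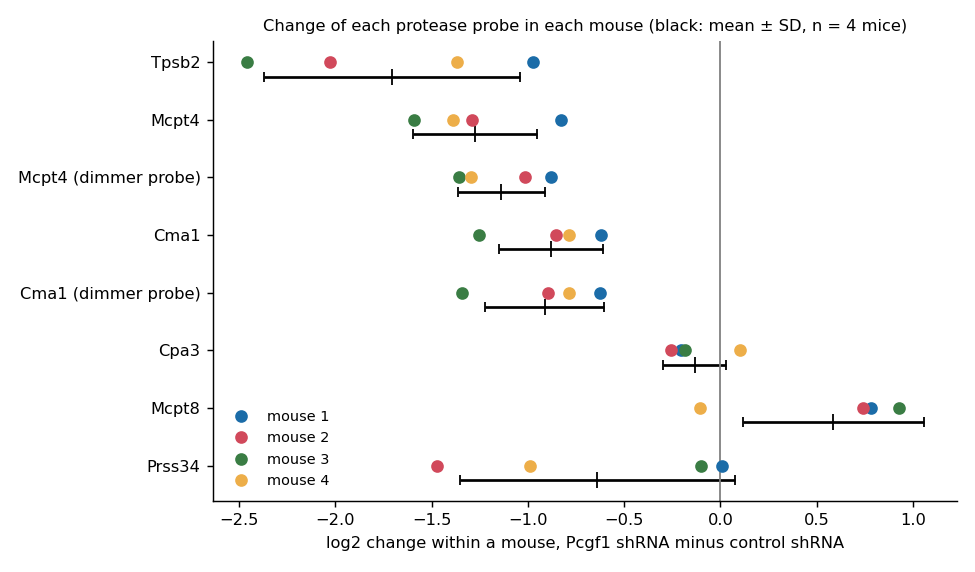
Log2 change within each mouse, Pcgf1 shRNA minus control shRNA, for the 8 protease probes above background, with a coloured point per mouse and a black bar for the mean ± SD (n = 4 mice). All points of Tpsb2, Mcpt4 and Cma1 lie below 0 on every probe, while those of Cpa3 lie between −0.25 and 0.10.

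Genes listed as neighbours of the proteases were followed as well. Of 8 genes on the tryptase list 4 were measured. Of these, Tpsg1 alone lies in the stretch from Prss34 to Tpsg1 described above. Tpsg1, the gene of a membrane-anchored tryptase beside Tpsb2, was −0.79 (SE 0.35, adjusted p 0.419) in limma without a block. With mouse as a block it fell (adjusted p 0.0331), as 1 of the 4, beside 2.42% of all genes. At an unadjusted p under 0.05 in limma 1 of the 4, Prss30, was lower (−0.45), beside 5.51% of all genes. Prss30 read near background, was above it on 4 of 4 Pcgf1 arrays and 3 of 4 control arrays, and was higher in mouse 2 (0.077). Of 10 genes listed around the chymase locus 3 were measured and 0 passed in limma either way, nor did any have an unadjusted p under 0.05. The smallest p among them were those of the granzyme gene Gzmd (−0.35, adjusted p 0.582) and of Ctsg (0.21, adjusted p 0.639), which lies on the far side of Mcpt8. The list medians were −0.37 for the tryptase list and −0.20 for the chymase list.

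Lists of other mast cell and basophil genes are given by role, and differences between the lists were not tested. Of 18 measured receptor and signalling genes (23 listed) 0 passed in limma without a block, where 1 was lower and 1 higher at an unadjusted p under 0.05, a share near that of all genes (12.2%). With mouse as a block 1 of the 18, Il1rl1, which encodes the receptor for IL-33, fell (−0.56, adjusted p 0.0477). That share is near the 5.32% of all genes called in either direction in that fit. The 5 genes in the marker lists for mast cells and basophils that are not proteases were above background on all 8 arrays and did not pass either way: the SCF receptor gene Kit was at −0.17, the IgE receptor genes Fcer1a at −0.34 and Ms4a2 at 0.06, the basophil receptor gene Cd200r3 at −0.16 and Gata2 at 0.11. The receptors Mrgprb1, Mrgprb2 and Mrgpra4 were above background on 0 of 8 arrays.

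Of 16 measured genes for granule storage, amines and lipid mediators (18 listed) 3 were lower and 2 higher at an unadjusted p under 0.05. Of all genes 5.51% were lower and 6.65% higher at such a p. After adjustment 1 of the 16 fell and 0 rose without a block, beside 0.168% and 0.595% of all genes. This was Tph1, the first enzyme of serotonin synthesis, 2.59-fold lower (log2 change −1.37, SE 0.17, adjusted p 0.0206), with −0.95, −1.60, −1.81 and −1.12 in mice 1 to 4. Mouse 1 was again the least changed and mouse 3 the most. Without a block its call was lost without mouse 1, 2 or 3 (adjusted p 0.121, 0.352 and 0.175), and with mouse as a block without mouse 2 or mouse 4 (0.0920 and 0.0535). With mouse as a block Hs6st2, a heparan sulfate 6-O-sulfotransferase, also fell (−0.47, adjusted p 0.0499). Slc22a3, an organic cation transporter, was past the threshold in that fit too (adjusted p 0.0282), but it was above background on 4 of 4 Pcgf1 arrays and 1 of 4 control arrays and so was kept through the group where it was high. Among the 15 genes of the list above background on all 8 arrays, the fit with mouse as a block called 2 lower and 0 higher. It called 2.42% of all genes lower and 2.91% higher. The list median was −0.07.

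Of 17 measured transcription factor genes (19 listed) 0 passed without a block, where 2 were lower and 1 higher at an unadjusted p under 0.05 (12.2% of all genes were at such a p). With mouse as a block Mitf, a master regulator of mast cells, fell (−0.48, adjusted p 0.0331) and so did Cebpb (−0.35, adjusted p 0.0483), while Cebpa, which favours basophils over mast cells in mouse progenitors, rose (0.70, adjusted p 0.0212). Of all genes 2.42% fell and 2.91% rose in the fit with mouse as a block. The median of the transcription factor list was −0.15, and that of the receptor genes was also −0.15. Of 7 measured cytokine genes (9 listed) 0 passed without a block, where 1 was lower at an unadjusted p under 0.05, beside 5.51% of all genes. The cytokine gene Osm rose with mouse as a block (0.51, adjusted p 0.0331), and the list median was 0.0040. Of the 9 genes of these lists past the threshold with mouse as a block, 7 lost the call whichever mouse was left out, namely Tpsg1, Il1rl1, Hs6st2, Mitf, Cebpb, Cebpa and Osm. Slc22a3 kept it without mouse 3 alone, and Tph1 without mouse 1 or mouse 3. Without mouse 2, 0 of 17300 genes on the array passed that fit.

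**Figure D4:**
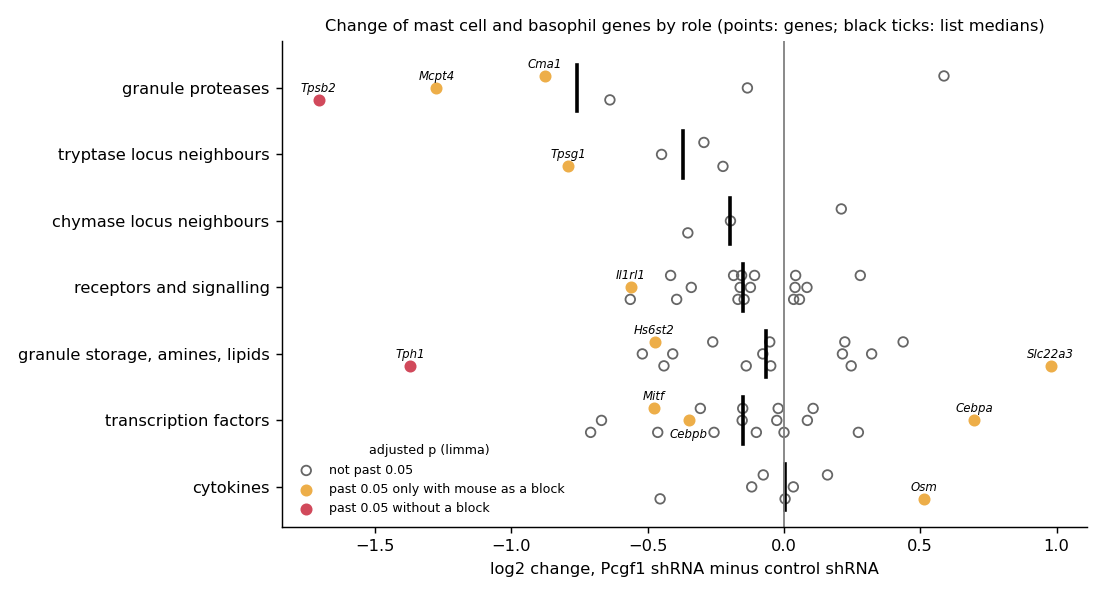
Log2 change (Pcgf1 shRNA minus control shRNA) of each measured gene, by role, with black ticks for list medians, red points for genes that passed limma without a block, yellow for those that passed only with mouse as a block, and open points for the rest. The tick of the granule proteases lies at −0.76, and Tpsb2 and Tph1 are the genes past the threshold without a block.

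The genes whose signal over the 8 arrays was most like the median of the 6 proteases were sought among 11706 other named genes. The closest was Tpsg1 (Pearson r = 0.97 over 8 arrays), followed by Lmna (0.97), LTO1 (0.96), Agfg2 (0.96), Sbsn (0.95) and Tnfrsf11a (0.95). Tpsg1 is the neighbour of Tpsb2, Lmna encodes nuclear lamins A and C, and Tnfrsf11a encodes the receptor RANK. The 8 arrays come from 4 mice and share the group difference and the scaling, so these values describe likeness only. The protease median was itself lower in the Pcgf1 culture of every mouse, so genes chosen for likeness to it share that direction by choice. All 6 were lower with the Pcgf1 shRNA in 4 of 4 mice, as were 16.2% of all genes, which is thus no separate result. Their log2 changes lay between −0.81 and −0.15, and 0 of them passed without a block.

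**Figure D5:**
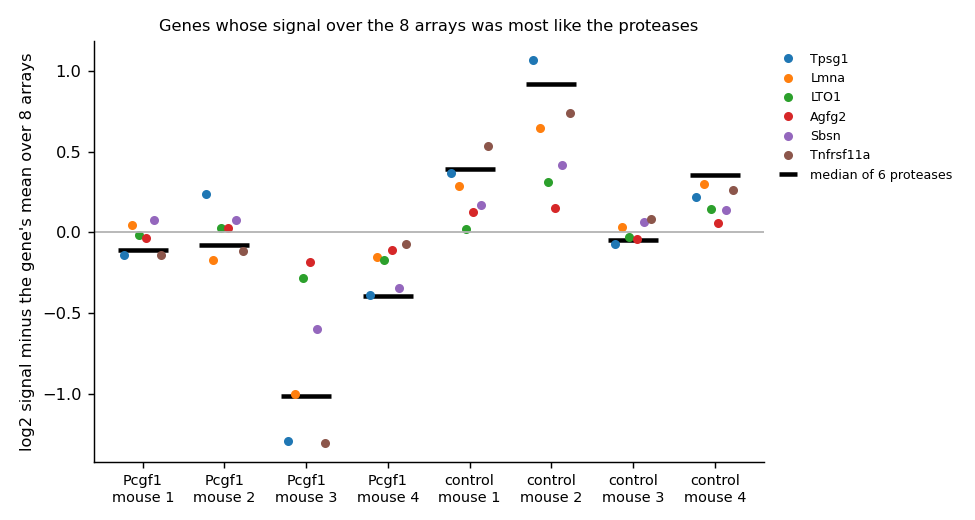
Log2 signal of the 6 most similar genes (coloured points) and the median of the 6 proteases (black bars), each centred on its mean over the 8 arrays, by culture. The lowest median was that of the Pcgf1 culture of mouse 3 (−1.01) and the highest that of the control culture of mouse 2 (0.92).

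Markers of other cell types moved in the same cultures. Beside the counts that follow, 0.168% of all genes fell and 0.595% rose in limma without a block. With mouse as a block 2.42% fell and 2.91% rose. At an unadjusted p under 0.05 in limma without a block 5.51% were lower and 6.65% higher. Of 12 measured genes of neutrophil maturation (15 listed) 4 fell and 0 rose without a block, or 10 fell with mouse as a block, with a median change of −1.79. Of these 12, 3 were kept through the control group, where they were high, and among the 9 above background on all 8 arrays 2 fell, or 7 with mouse as a block. The summed signal, in multiples of the array's 75th percentile, was 50.3 to 141 with the Pcgf1 shRNA and 167 to 425 with the control shRNA. Such sums rest mostly on the brightest probes of a list, here those of S100a9 and Chil3, and do not describe every gene in it. Ngp and Ltf were above background on 0 of 4 Pcgf1 arrays and on 4 of 4 control arrays. Of the 10 calls with mouse as a block 8, 0, 6 and 1 were left without mouse 1, 2, 3 and 4 in turn, and of the 4 without a block 0, 0, 0 and 2. Of 7 eosinophil genes (9 listed) 0 passed (4 lower and 1 higher at an unadjusted p under 0.05), or in the fit with mouse as a block 3 fell and 1 rose, with a median change of −1.26 and sums of 2.55 to 5.72 with the Pcgf1 shRNA against 7.62 to 19.0 with the control shRNA. Of 13 erythroid genes (14 listed) 0 passed (2 lower at an unadjusted p under 0.05), or 5 fell with mouse as a block, with sums of 239 to 640 with the Pcgf1 shRNA against 460 to 792 with the control shRNA. The brightest erythroid probes, those of the globin genes Hbb-bt and Hba-a1, passed in neither fit. Of 10 monocyte and macrophage genes (11 listed) 0 passed (4 lower at an unadjusted p under 0.05), or 3 fell with mouse as a block. Their median change was −0.49, with sums of 68.0 to 105 with the Pcgf1 shRNA against 72.4 to 137 with the control shRNA. The 3 were among the 9 genes of this list above background on all 8 arrays. For 6 primary granule genes of neutrophils and 9 megakaryocyte genes 0 passed either way. Of 10 measured stem and progenitor genes 1 rose, or 2 rose and 1 fell with mouse as a block, of 5 T and NK genes 1 rose either way, and of 4 B lymphoid genes 0 passed (2 lower and 1 higher at an unadjusted p under 0.05). All of these marker calls were lost without mouse 2, where 0 of 17300 genes passed in either fit, so that loss is not particular to the markers. Their part in the protease values was not tested.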

How the data were processed

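Agilent Feature Extraction 10.1 read the arrays, per the submitters' processing notes. The deposited spot intensity had the local background subtracted and a spatial trend removed, per the file headers, and was not normalized between arrays. A value table from the authors gives log2 values, centred per probe on the median of the 8 arrays, and served as an alternative.

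The log2 intensity was shifted so that each array's 75th percentile was 0. Control spots and 242 non-uniform values were left out and spots of a probe averaged. A probe was kept (22747 of 41174) if 1 group or both had it above background on every array, and the brightest stood for a gene. Symbols came from RefSeq accessions of GRCm38.p6; the arrays' grid names an older build, so that table gave names and gene order, and coordinates are printed for GRCm38.p6 promoter windows alone. The test was limma (version 3.58.1, R 4.3.3), two-sided, with Benjamini-Hochberg adjustment over all genes tested and a threshold of 0.05, without a block, with mouse as a block as the alternative. The pairing comes from the labels, since both cultures of a number are from 1 mouse; after removing group means their arrays correlated with r of 0.44, 0.48, 0.41 and 0.64. The procedure was also run on simulated data with independent errors and no effect of mouse or slide. That run cannot show how the fit with mouse as a block behaves on paired arrays. The number of arrays limits precision.

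Members and lists were chosen with earlier results of these data known. Named genes are the 10 members, Pcgf1, in each list the genes that passed either fit or else those with the smallest p, and the 6 genes most like the members. Kit, Fcer1a, Ms4a2, Cd200r3 and Gata2 are the other genes of the marker lists for mast cells and basophils. The Mrgpr genes, Prss30, Ngp, Ltf, S100a9, Chil3, Hbb-bt and Hba-a1 were singled out after their values were seen.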

Additional observations from a re-analysis of the deposited data

Results flagged for a closer look

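Within groups of 4 arrays, and over the 4 within-mouse changes, 30 sets of protease values were examined with Dixon's test, and 1 held a value far from the others; chance gives such a value in about 1 of 20 sets. Mcpt1 read −6.31 in the Pcgf1 shRNA culture of mouse 1, against −7.86, −7.60 and −7.75 in the other Pcgf1 shRNA cultures. All 4 lie below the lowest signals called above background.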

How the results depend on the processing

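All 6 tested proteases and Pcgf1 kept their direction under the 19 alternatives. Calls changed as follows. With mouse as a block (the replicate block) Mcpt4 (−1.27, adjusted p 0.0164) and Cma1 (−0.88, adjusted p 0.0212) passed, and it changed no other protease call. Without the filter on dim probes Tpsb2 (−1.71) and Pcgf1 (−1.36) no longer passed. With 1 mouse left out, with or without the block, the log2 changes ranged from −1.42 to −1.17 for Mcpt4 and 0.47 to 0.82 for Mcpt8. They were −0.21 to −0.094 for Cpa3, −0.85 to −0.36 for Prss34 and −0.96 to −0.75 for Cma1. For Tpsb2 they were −1.95 to −1.46 and for Pcgf1 −1.38 to −1.34. Tpsb2 lost its call without a block whichever mouse was left out, and with the block without mouse 2 (−1.60) or mouse 4 (−1.82). Mcpt8 passed with the block without mouse 4 (0.82, adjusted p 0.0455). Mcpt4 passed with the block without mouse 1 or mouse 3, and Cma1 without mouse 3. Pcgf1 did not pass without mouse 1, 2 or 3 (with the block, without mouse 2). The genes called over the whole array then ranged from 0 to 363 without a block (1 without mouse 1, 0 without mouse 2 or mouse 3, 363 without mouse 4) and from 0 to 306 with it (284, 0, 306 and 145). Beside the counts of 0 in limma, 1000 genes (without mouse 2), 1089 (without mouse 3) and 2435 (without mouse 2, with the block) had an unadjusted p under 0.05. The whole-array count of 132 became 921 with the replicate block, 77 with normexp and 0 of 32969 without the filter on dim probes (2199 at an unadjusted p under 0.05). Rises made up 103 of the 132 calls and 503 of the 921. The spot files hold medians and no spot means, so normexp used medians. Alternatives chosen after seeing the data were leaving out population outlier spots, which changed no call of a protease, and, for the gene lists, leaving out each mouse and counting only genes above background on all 8 arrays. Leaving out a mouse removes 2 arrays; the cause of the other changes was not tested. Signals near background limit Prss34, Mcpt1 and Mcpt2. They also limit the size of the change of Tpsb2, which read −4.00 to −2.61 with the Pcgf1 shRNA. Prss34 read −4.52 to −3.40 in the same cultures. With normexp the change was smaller for Tpsb2 (−1.13) and for Mcpt4 (−0.88, adjusted p 0.0879 in limma).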
